A study of Caenorhabditis elegans with 2 samples.

Results

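The small nuclear RNA (snRNA) and spliced-leader RNA genes of Caenorhabditis elegans were examined for peaks of HLH-26::eGFP. All nuclear genes of biotype snRNA in the Ensembl WBcel235 annotation were taken, which gave 129 of 46890 nuclear genes. The data are chromatin immunoprecipitations with an antibody against GFP, sequenced and reduced by the authors to peak lists. The samples were 2 biological replicates of whole young adult worms (66 hours) of strain RW12174, grown from larvae that hatched after bleaching and were starved at L1. Both carried the allele st12174, a CRISPR insertion that fuses GFP to hlh-26 and brings in a rescuing unc-119(+) copy flanked by loxP sites, and the mutation unc-119(tm4063) on chromosome III. HLH-26 is a basic helix-loop-helix protein. The 2 replicates form 1 group, with no untagged worms among the samples analysed here, so the background given below is that of other genes in the same lists. The worms were whole animals, so a peak may come from any tissue and peaks of different tissues cannot be told apart.

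Small nuclear RNAs are short, non-coding RNAs that join a ring of Sm or, for some, LSm proteins and further proteins. Together these form the particles of the spliceosome, which removes introns. In nematodes, spliced-leader RNAs work in the same kind of particle and donate their 5′ end to the pre-mRNAs of many genes by trans-splicing: SL1 RNA chiefly to the first or only gene of a transcript, and SL2 RNAs to downstream genes of operons. SmY RNAs are small nematode RNAs that also bind Sm proteins and have been linked to trans-splicing. All these genes are short, exist in many copies and carry their promoter elements just upstream of the transcribed sequence, where the SNAPc complex binds.

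The members were sorted by name and sequence. There were 12 SL1 genes (sls-1 names), 18 SL2 genes (sls-2 names) and 10 SmY genes (smy names). The other members were joined into families where sequences were at least 80% identical over at least 80% of the longer gene, and each family is called by its member with the strongest peak, since the annotations used here assign no member to a U type. These were the W05B2.8 family (23 genes of 93 to 108 bases), the F11A5.14 family (19 genes, 185 to 187 bases), the sup-6 family (13 genes, 156 to 170 bases), the F38E11.10 family (12 genes, 117 to 126 bases) and the C52E4.8 family (5 genes, 142 to 144 bases), with 17 genes left over. The 129 genes held 94 distinct sequences, so many members are copies of each other and not independent. Ensembl gives 35 members another name than RefSeq and uses the name R07E5.16 for 14 of them, so RefSeq symbols matched by gene ID are used here.

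Sequences of some members, with strong, weak or no ranked peaks, are shown first, from the RefSeq WBcel235 genome, as the RNA strand 5′ to 3′. Capitals mark the word ATTTTTG, which resembles the U-rich site where Sm proteins sit. The first set is the sup-6 family, shown because its members hold several of the strongest peaks: sup-6 (chrII:12944803-12944967, minus strand), sup-39 (chrII:6968394-6968558, minus strand), defined genetically by a suppressor mutation in a U1 snRNA gene, and T08G5.11 (chrV:14028471-14028635, minus strand).
sup-6: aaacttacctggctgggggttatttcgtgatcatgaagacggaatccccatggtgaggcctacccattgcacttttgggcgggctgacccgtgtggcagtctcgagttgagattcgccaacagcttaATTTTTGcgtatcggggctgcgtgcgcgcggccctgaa
sup-39: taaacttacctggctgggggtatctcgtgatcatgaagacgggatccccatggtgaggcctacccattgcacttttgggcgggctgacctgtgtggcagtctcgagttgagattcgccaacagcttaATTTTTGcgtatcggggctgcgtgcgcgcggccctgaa
T08G5.11: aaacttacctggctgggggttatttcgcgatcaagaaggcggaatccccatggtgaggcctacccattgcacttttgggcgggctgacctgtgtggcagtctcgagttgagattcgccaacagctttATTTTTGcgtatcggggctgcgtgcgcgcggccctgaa
U1 RNA pairs with the 5′ splice site of introns through bases near its own 5′ end. The sup-6 gene was 97.58% identical to sup-39 and 96.97% identical to T08G5.11, and the pair sup-39 and T08G5.11 was 95.76% identical.

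The second set is of spliced-leader genes, SL2 genes with peaks and 1 SL1 gene without: sls-2.3 (chrII:5544164-5544273, minus strand), sls-2.14 (chrIII:11090412-11090523, minus strand) and sls-1.10 (chrV:17120694-17120791, minus strand), together with the SmY gene smy-5 (chrV:14096389-14096465, minus strand).
sls-2.3: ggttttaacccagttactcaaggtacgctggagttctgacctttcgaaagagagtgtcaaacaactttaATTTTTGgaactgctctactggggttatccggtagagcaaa
sls-2.14: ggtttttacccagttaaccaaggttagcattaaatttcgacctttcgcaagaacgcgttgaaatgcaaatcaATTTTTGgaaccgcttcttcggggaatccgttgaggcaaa
sls-1.10: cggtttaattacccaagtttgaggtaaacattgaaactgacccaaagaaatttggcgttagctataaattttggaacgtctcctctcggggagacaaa
smy-5: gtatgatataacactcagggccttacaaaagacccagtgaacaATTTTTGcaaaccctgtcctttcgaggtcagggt
The 2 SL2 genes shown were 77.68% identical to each other, whereas sls-2.3 was 97.27% identical to its neighbour sls-2.2. The sls-1.10 sequence occurred 10 times in the genome.

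Fewer than 50% of the snRNA genes lay at a site on the series ranked list, and 3 at a site that passed the authors' threshold. That list holds 35301 peaks, nearly all 524 bp wide, each scored by how reproducibly it appears in both replicates. Ranks given below are by signal, from the strongest. Within 200 bp of a ranked peak lay 59 of 129 snRNA genes (45.7%, exact 95% interval 36.9 to 54.7%), against 35.4% of all nuclear genes. The same share was 51.2% for snoRNA genes (177 of 346), 68.1% for tRNA genes (417 of 612), 40.2% for miRNA genes, 56.5% for protein-coding genes over their whole length (11280 of 19973) and 24.4% for windows of the same lengths placed at every nuclear position. The lower end of the interval at snRNA genes lay above the shares of genome windows and all genes, its upper end lay below those of tRNA and coding genes, and the shares of snoRNA and miRNA genes fell inside it. Coding genes are longer than snRNA genes, and 23.9% of their starts lay within 200 bp of a ranked peak. No test of these differences was made, since copies of a gene and neighbours under 1 peak are not independent.

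**Figure D1:**
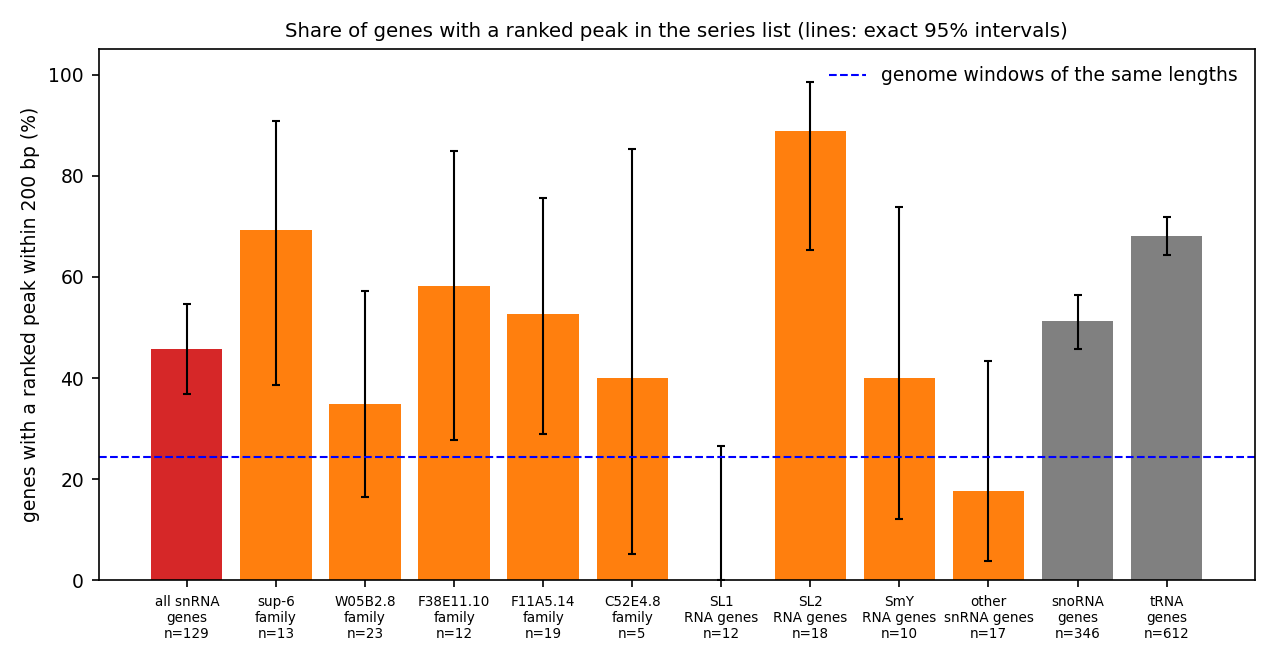
Share of genes (%) within 200 bp of a ranked peak of the series list, for all snRNA genes (red), their classes (orange) and for snoRNA and tRNA genes (grey), with exact 95% intervals and the number of genes under each bar. The dashed line marks the 24.4% of genome windows; SL2 genes reach 88.9% and SL1 genes are at 0.

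The 59 genes had a median signal of 41.5 at their strongest peak (quartiles 33.1 and 56.5, range 12.4 to 108). Signal is the authors' value of enrichment, whose scale is not stated, so it is compared only within a list. The median was 40.3 for snoRNA genes with a peak, 42.7 for tRNA genes, 34.5 for all nuclear genes and 26 for all nuclear ranked peaks, 86.2% of which lay below the members' median. The members' peaks thus had signals like those at the other short RNA genes listed. The comparison with all ranked peaks is uneven, since those are single peaks and a gene's value is its strongest. As 36 members had a second ranked peak, taking the strongest raises the members' values. The irreproducible discovery rate (IDR), the estimated share of irreproducible peaks among those ranked at least as high, had a median of 56.2% at the members' strongest peaks, so most of them recurred poorly by that measure. They comprised 55 distinct peaks, as 4 pairs of members shared 1: sls-2.2 and sls-2.3, smy-9 and smy-10, sup-39 and mir-1831, and the overlapping genes T27E4.12 and T27E4.22.

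The thresholded list, 90 peaks, reached 3 members: W05B2.8, sup-6 and sls-2.4. That is 2.33% of the snRNA genes (exact 95% interval 0.482 to 6.65%), against 0.305% of all nuclear genes, 5.49% of snoRNA genes (19 genes) and 1.96% of tRNA genes (12 genes). The other series list gave like counts, with 55 members on its ranked version against 35.2% of all genes, and 3 members on its thresholded version against 0.252% of all genes. In the thresholded list of each single replicate no member was found. Those lists hold 21 and 27 peaks and reached 0.0405% and 0.0597% of all genes in replicates 1 and 2, and 0 of 129 genes allows a share of up to 2.82% by the exact interval. At a looser score of 540, an IDR near 5%, 6 members were called (4.65%), against 0.894% of all genes. The 3 added members were sup-39, mir-1831, which lies within it, and F38E11.10.

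**Figure D2:**
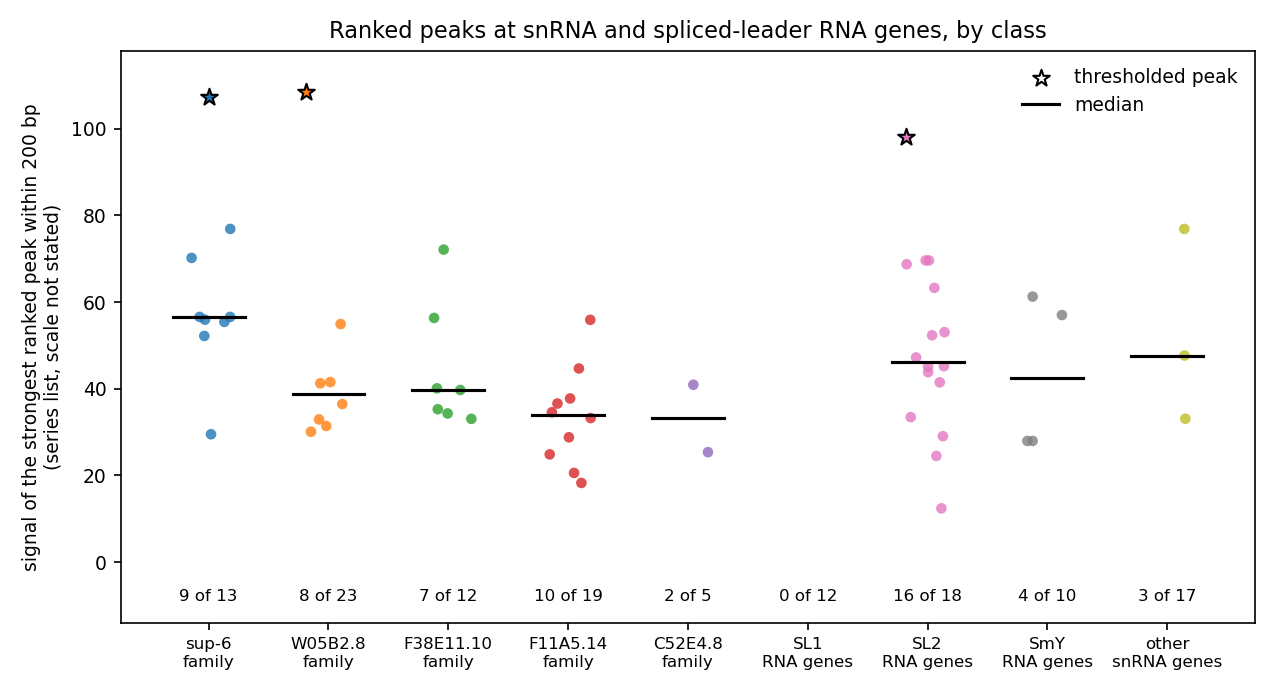
Signal of the strongest ranked peak within 200 bp (series list) for each snRNA gene that has one, by class. Stars are the 3 genes with a thresholded peak, black lines are class medians, and the counts give genes with a peak of all genes in the class; the sup-6 family has the highest median, 56.6.

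The sup-6 family, to which sup-39 belongs, had the highest median signal of the classes, and 9 of its 13 genes had a ranked peak (69.2%, exact 95% interval 38.6 to 90.9%). Its median signal was 56.6 (range 29.5 to 107). At sup-6 the signal was 107, the 26th strongest peak of the list, with an IDR of 0.1%, and it was 56.6 in replicate 1 and 49.4 in replicate 2. The gene lies within the coding gene F58G1.7. At sup-39 the signal was 76.9 (rank 160, IDR 1.63%), with 38.2 in replicate 1 and 39.8 in replicate 2. The same peak covers mir-1831, a 22-base gene that carries a microRNA name but the biotype snRNA. At T08G5.11 the signal was 70.2 (IDR 5.06%), with 35 in replicate 1 and 33.4 in replicate 2. These 3 genes were close in level in both replicates. In each the summit of the strongest peak lay past the 3′ end, at 171, 265 and 268 bp from the 5′ end. Each also had a second ranked peak with its summit nearer the 5′ end. These were 44.2 at −30 bp for sup-6, 60.9 at 35 bp for sup-39 and 50.6 at 69 bp for T08G5.11.

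Further members of that family were found at lower signals. The overlapping genes T27E4.12 and T27E4.22 shared a peak of signal 56.6 (25.4 in replicate 1, 28.0 in replicate 2). H27M09.6, whose peak also holds the coding start of syp-4, which encodes a protein of the meiotic synaptonemal complex,, had 55.9 (28.3 in replicate 1, 26.8 in replicate 2). F08H9.11 (55.4) was on the own list of replicate 1, at 34.7, and not on that of replicate 2. F40G12.13 (52.2) was on the own list of replicate 2, at 20.7, and not on that of replicate 1. The series list also records a signal from each of its 2 compared lists, which share exact peaks with replicates 1 and 2 in turn. These were 34.7 and 23.7 at F08H9.11, and 23.3 and 20.7 at F40G12.13. C27H5.11 had the lowest signal of the family, 29.5. Genes of similar sequence within the family thus differed in signal.

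In the W05B2.8 family 1 copy stood above the rest. Its strongest peak, at W05B2.8, had a signal of 108, rank 25, with an IDR of 0.0657%, 65.7 in replicate 1 and 47.8 in replicate 2, and its summit lay 18 bp past the 5′ end. The gene lies inside the dynein heavy chain gene dhc-4. Of the 23 genes, 8 had a ranked peak (34.8%, exact 95% interval 16.4 to 57.3%), with a median signal of 38.9. T08B6.62 followed at 54.9 (25.6 in replicate 1, 26.4 in replicate 2). The copy R07E5.16, identical to W05B2.8 in sequence, lies inside mpc-1, a mitochondrial pyruvate carrier gene. It had 36.5, with 22.1 in replicate 2 and no peak on the own list of replicate 1. The first compared list, which shares exact peaks with replicate 1, had 14.8 there. The identical copies K09C6.12 and Y9C9A.111 had 41.5 and 41.3. Among the identical genes with a ranked peak, signals therefore ran from 31.4 at C28A5.7 to 108. Most of the 14 genes with this sequence had no ranked peak. K09C6.12 was on neither replicate's own list, though the compared lists of the series list gave its peak 22.1 and 18.6. The IDR was 74% at Y9C9A.111 and 86% at C28A5.7.

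The F38E11.10 family had 7 of 12 genes with a ranked peak (58.3%, exact 95% interval 27.7 to 84.8%) and a median signal of 39.7 (range 33.1 to 72.1). F38E11.10 itself had 72.1, with a score of 814, just under the 833 of the weakest peak on the thresholded list, 45.1 in replicate 1 and 35.6 in replicate 2. Its identical copy F38E11.11 had 39.7, with 24.8 in replicate 1 and 16.5 in replicate 2. The summit of that peak lies past the copy, 352 bp from its 5′ end. A ranked peak with its summit nearer, at 138 bp, had a signal of 11.8. Both replicates gave the copy less. C53D6.12 had 56.3, which was uneven between replicates, 41.2 in replicate 1 and 15.8 in replicate 2. That peak also touches the tRNA gene C53D6.t1, and its summit lies past the snRNA gene, 341 bp from the 5′ end. Which of these genes the signal belongs to was not tested.

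The F11A5.14 family, of the longest genes, had 10 of 19 genes with a ranked peak (52.6%, exact 95% interval 28.9 to 75.6%) but a median signal of 33.9, near the 34.5 of all nuclear genes with a peak. Its lead F11A5.14 had 55.9, 28.3 in replicate 1 and 23.2 in replicate 2, and 3 of its 10 genes were on all the ranked lists. The C52E4.8 family had peaks at 2 of 5 genes, C52E4.8 (40.9) and K03B8.10 (25.4). Of the 17 unclassified genes, 3 had a ranked peak: mir-1831, M163.13 (47.7, the only member with a peak on the X chromosome, 23.2 in replicate 1 and 25.6 in replicate 2) and T10H4.16 (33.1).

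The spliced-leader genes split by type. Of the 18 SL2 genes 16 had a ranked peak (88.9%, exact 95% interval 65.3 to 98.6%), with a median signal of 46.2 (range 12.4 to 98.1), while none of the 12 SL1 genes had one (0%, upper bound 26.5%; 3 counts of 12 would be 25%). Without the SL1 genes the share of members with a ranked peak was 59 of 117 (50.4%, exact 95% interval 41.0 to 59.8%). The 12 SL1 genes hold 2 distinct sequences, so they are not 12 independent cases, and no test of the difference was made. The SL1 genes lie in 1 tandem array on chromosome V, at chrV:17118154-17132107, and their nearest ranked peak was 1050 bp away or more in the series list, 2332 bp or more in replicate 1 and 3391 bp or more in replicate 2. The flanks of these genes are repeated: 0 to 19.9% of the 31-letter words across each SL1 gene and 200 bp either side occur once in the genome. How the authors treated reads that match many places is stated nowhere in the labels or lists, and its part in this absence was not tested.

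Among the SL2 genes sls-2.4, near the start of egg-5, had the strongest peak, with a signal of 98.1 (rank 42, IDR 0.147%), 55.3 in replicate 1 and 46.3 in replicate 2. The convergent pair sls-2.2 and sls-2.3 shared a peak of 69.6, but its score was only 104. It overlaps sls-2.2, where replicate 1 had 59.5 and replicate 2 had 15.7. Its summit lies 554 bp from the 5′ end of sls-2.3, outside that gene. The 2 ranked peaks that overlap sls-2.3 had signals of 13.4 and 13.3 (ranks 31760 and 31867). In replicate 2 the strongest peak at sls-2.3, 17.4, is not the one at sls-2.2. Replicate 2 was the higher at sls-2.14, with 68.7 in the series list, 27.7 in replicate 1 and 49.0 in replicate 2. Its divergent neighbour sls-2.15, 93.75% identical to it, had 45.1, with 20.3 in replicate 1 and 28.3 in replicate 2. At sls-2.1 (63.3) a peak was on the own list of replicate 1, at 40.7, and not on that of replicate 2. The second compared list of the series list had 19.4 there. At sls-2.9 the signal was 52.3, with 26.7 in replicate 1 and 21.8 in replicate 2. That peak also covers the tRNA gene M01E5.t1, and its summit lies 112 bp upstream of sls-2.9. Which of these genes the signal belongs to was not tested. The genes sls-2.5, sls-2.16 and sls-2.18 all lie within the glutamate receptor gene glr-2, at 47.2, 33.5 and 53.1. The low end was sls-2.13 (24.5) and sls-2.17 (12.4), neither on a replicate's own list. The 2 SL2 genes with no peak, sls-2.6 and sls-2.7, lie near each other on chromosome I; they are named because they were seen to lack one.

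Of the 10 SmY genes 4 had a ranked peak (40%, exact 95% interval 12.2 to 73.8%), with a median signal of 42.5. At smy-5 it was 61.3 (35.4 in replicate 1, 13.0 in replicate 2), and at smy-1 57.0 (33.9 in replicate 1, 21.3 in replicate 2), so replicate 1 was higher at both. The pair smy-9 and smy-10 shared a peak of 28.0, which the class median counts for both genes. It overlaps smy-10 but not smy-9, and its summit lies upstream of smy-9. The ranked peak that overlaps smy-9 had a signal of 10.1 (rank 35244). Both genes had peaks on the own list of replicate 1, the strongest at 22.8, and none on that of replicate 2. At the shared peak the compared lists of the series list had 19.1 and 13.8. The genes smy-4, smy-6, smy-7, smy-8, smy-11 and smy-12 had none in any of the 3 lists.

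The replicates were then compared by their own ranked lists. Replicate 1 had a peak at 49 members (38.0%), against 25.1% of all nuclear genes, and replicate 2 at 46 members (35.7%), against 28.9%. In all 3 ranked lists were 34 members (26.4%, exact 95% interval 19 to 34.8%), against 15.3% of all genes, 28.0% of snoRNA genes, 32.4% of tRNA genes and 27.6% of coding genes. Of the members on the series list, 57.6% were on both replicates' lists, while this was 54.8% of such snoRNA genes, 47.5% of tRNA genes and 43.1% of all nuclear genes. Further, 15 members were on the list of replicate 1 alone of the replicates, 12 on that of replicate 2 alone, 8 in the series list alone, and 10 on a replicate's list but not on the series list. Of all 46890 nuclear genes, 11786 were on the list of replicate 1, 13564 on that of replicate 2 and 7444 on both. The counts of 8 and 10 were not worked out over all genes, so nothing is read from them. Median signals were 25.4 at members and 23.2 at all nuclear genes with a peak in replicate 1, and 21.7 at members and 19.5 at all nuclear genes in replicate 2.

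Across the 34 members on both replicates' lists the ratio of the replicate 1 signal to the replicate 2 signal had a median of 1.01 and ran from 0.429 to 3.8, with 17 of 34 higher in replicate 1. Over those genes, which share flanks and peaks, Spearman's rho between the replicates was 0.25, and 0.313 over the 7444 nuclear genes on both lists. The 3 genes with a thresholded peak were high in both replicates, which that list selects for, since its score measures how reproducibly a peak appears. The genes sls-2.2 and C53D6.12 were high in replicate 1 and low in replicate 2.

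**Figure D3:**
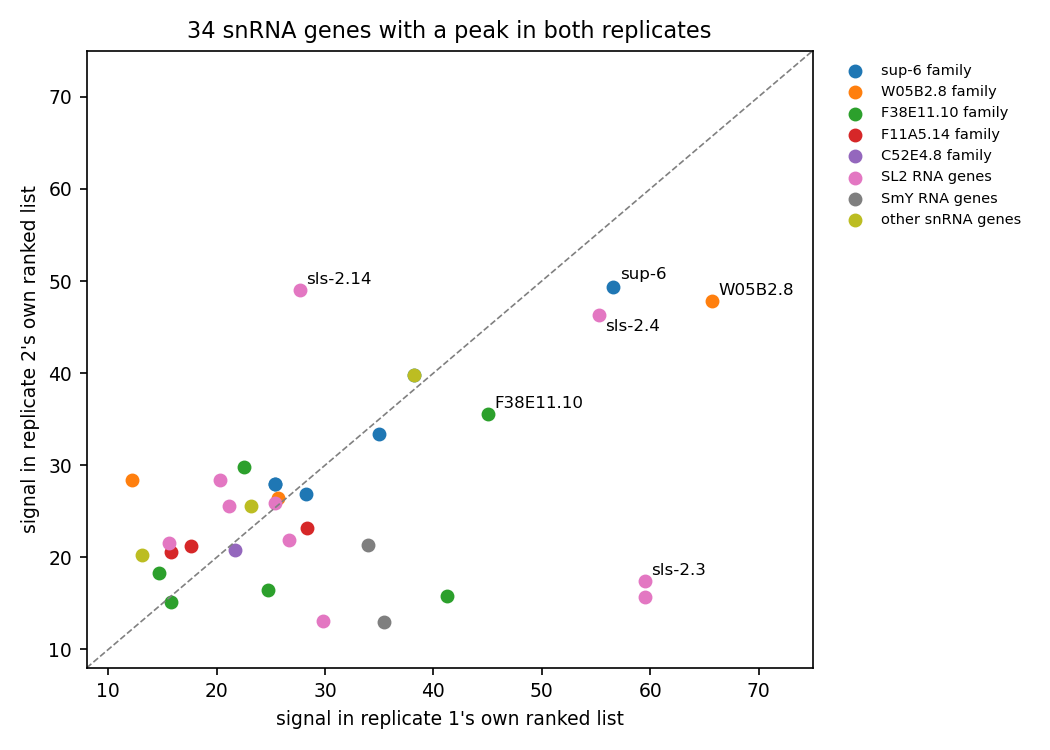
Signal in replicate 2's own ranked list against that in replicate 1's, for the 34 snRNA genes with a peak within 200 bp in both, coloured by class; the dashed line marks equal values, and genes that share a peak, such as sup-39 and mir-1831, can coincide. The genes W05B2.8, sup-6 and sls-2.4, whose thresholded peaks were selected for reproducibility, are high in both. The point of sls-2.3 (59.5 in replicate 1, 17.4 in replicate 2) is far below the line. Its values come from different peaks, the 59.5 being the peak shared with sls-2.2.

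The summits were near the genes but spread on both sides. The median summit lay 64 bp downstream of the 5′ end (quartiles 3.5 and 206 bp, range −403 to 626 bp). Of the 59 summits, 22 were inside the gene, 13 upstream of its 5′ end and 24 past its 3′ end, and 53 of the 59 peaks overlapped the gene. Only 3 of the peaks held the start of a coding gene (at H27M09.6, sls-2.8 and K03B8.10), and 8 touched another short RNA gene. A coding gene spanned 63 of the 129 members, and 30 of the 59 with a peak. Since peaks are mostly 524 bp wide and fragments were 200 to 800 bp per the labels, a summit in the promoter cannot be told apart from one in the short gene.

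**Figure D4:**
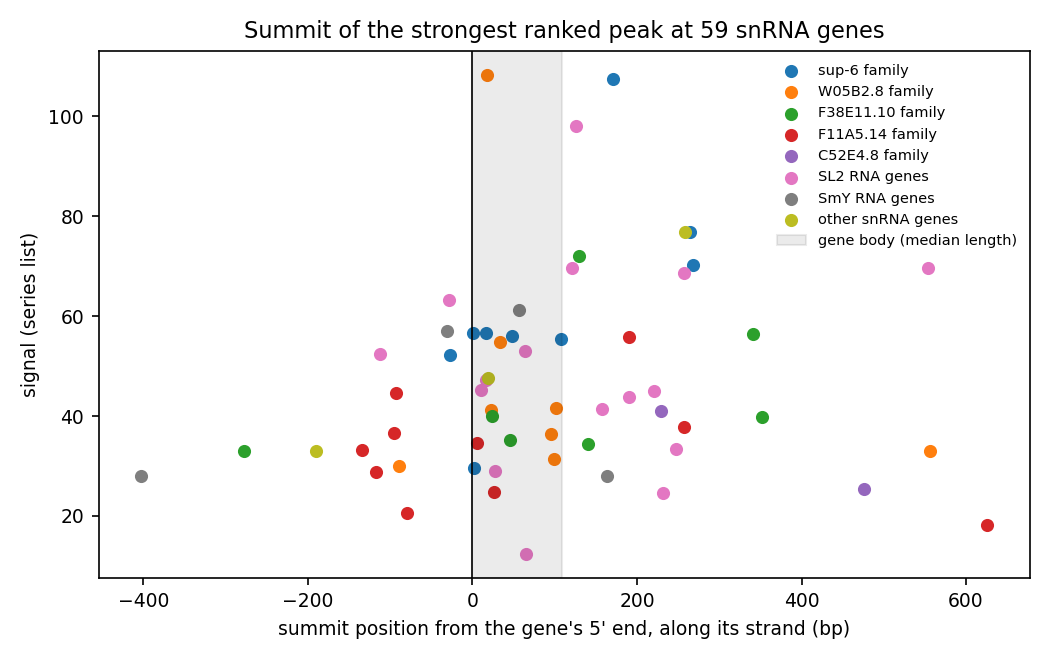
Position of the summit of the strongest ranked peak along the gene's strand, from its 5′ end (bp), against its signal in the series list, for the 59 genes with a peak. The shaded band is the median gene length. The sup-6 family's 3 strongest peaks lie past it, at 171 to 268 bp, while W05B2.8 has its summit at 18 bp. Weaker second peaks, which those 3 genes have nearer their 5′ ends, are not drawn.

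Members in highly repeated sequence seldom had a ranked peak, but the share with a peak did not rise steadily with uniqueness. The median share of 31-letter words that occur once in the genome, over the gene and 200 bp either side, was 81.7% at members with a ranked peak and 74.6% at members without. Under 50% unique were 3 of 59 members with a peak and 22 of 70 without. The latter include all 12 SL1 genes, which form 1 array and hold only 2 distinct sequences. In terms of bins, a ranked peak was found at 12% of 25 members with under 50% unique words, at 61.8% of 68 with 50 to 90%, and at 38.9% of 36 with more. In the top bin snoRNA genes had peaks at 53.3% and tRNA genes at 57.0%, and in the middle bin at 41.4% and 71.7%. The order of the middle and top bins therefore differed between the gene types, and the part of repeats in the counts was not tested.

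**Figure D5:**
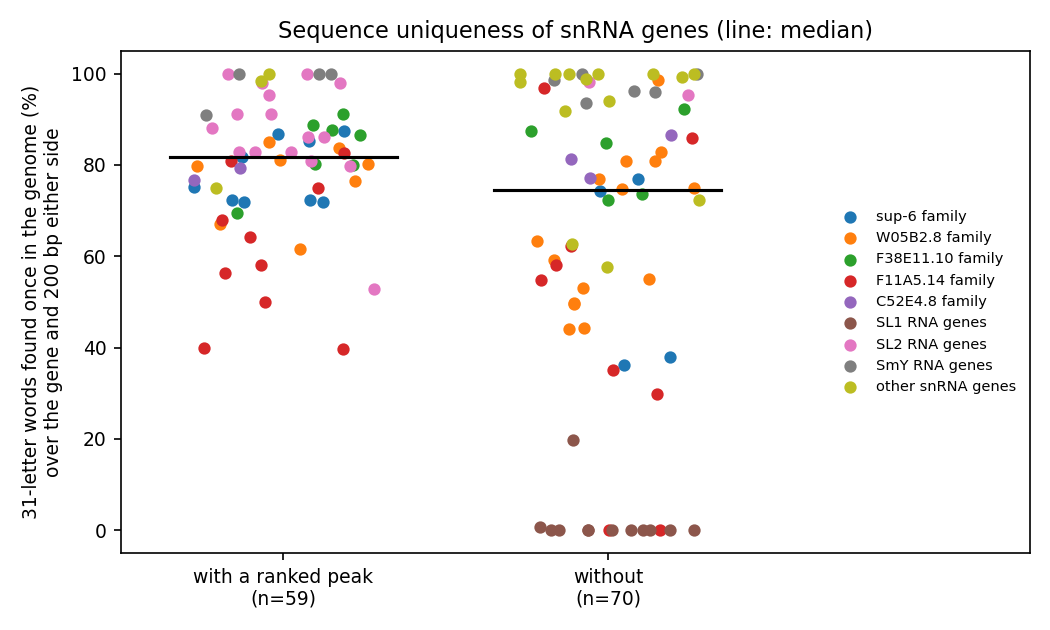
Share (%) of 31-letter words found once in the genome, over each snRNA gene and 200 bp either side, for the 59 genes with a ranked peak (left) and the 70 without (right), coloured by class, with the medians (81.7% and 74.6%) as lines. All SL1 genes lie at 0 to 19.9%, on the right.

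Some members of 6 of the 9 classes had a common word just upstream of the gene. The 8-letter word found in most members within the 100 bp upstream of the gene was CGGAACCC, in 31 of 129 (24.0%), beginning at a median of 61 bp before the 5′ end (quartiles −62 and −59). Only 0.0501% of the 100 bp upstream of 19973 coding genes held it on either strand. The word was in 8 of 13 sup-6 family genes, 6 of 12 of the F38E11.10 family, 5 of 18 SL2 genes, 5 of 10 SmY genes, 5 of 23 of the W05B2.8 family and 2 of 5 of the C52E4.8 family, and in none of the other classes. It was in 28.8% of members with a ranked peak and 20% of members without, and in shares from 0 to over 50% between classes. The upstream sequences of 3 members that hold the word, each ending at the base before the gene, show it in capitals at nearly the same distance in 3 classes: sup-6 (chrII:12944968-12945067, minus strand), sls-2.14 (chrIII:11090524-11090623, minus strand) and smy-5 (chrV:14096466-14096565, minus strand).
sup-6: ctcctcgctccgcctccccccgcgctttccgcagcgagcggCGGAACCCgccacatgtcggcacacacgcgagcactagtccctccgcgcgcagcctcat
sls-2.14: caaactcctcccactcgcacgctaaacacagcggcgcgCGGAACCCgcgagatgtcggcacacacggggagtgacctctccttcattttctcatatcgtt
smy-5: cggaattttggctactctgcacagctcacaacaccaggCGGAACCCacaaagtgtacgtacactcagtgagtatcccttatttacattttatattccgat
A match is a description of letters and not a binding site. The word ATTTTTG or ATTTTTTG, searched on the RNA strand of the gene, was in 72 of 129 members (55.8%), against 10.3% of genome windows of 109 bp, and in 43 of 59 members with a ranked peak and 29 of 70 without. It was in all genes of the sup-6, F11A5.14 and C52E4.8 families and all SmY genes, in 13 of 18 SL2 genes, and in no gene of the W05B2.8 family or SL1 gene, for which it says only that these letters are absent from the gene.

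By chromosome, members with a ranked peak were 9 of 16 on I, 10 of 16 on II, 9 of 13 on III, 18 of 41 on IV, 12 of 40 on V, which holds the 12 SL1 genes, and 1 of 3 on X. The share of all nuclear genes was not worked out by chromosome, so no difference between chromosomes is read from these counts.

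The protein partners of these RNAs were looked up at the starts of their genes. Of 55 listed genes 49 matched an annotated coding gene, and 16 had a ranked peak within 200 bp of the start (32.7%), against 23.9% of all coding gene starts. None had a thresholded peak. The ranked starts had a median signal of 32.7, against 29.7 at all coding starts with a peak. LSm proteins, which form a ring on some snRNAs or on mRNAs, had peaks at 5 of 7 starts, among them lsm-6 (58.9) and lsm-8 (53.5). Proteins of the snRNP particles had 6 of 12, led by snrp-200, a helicase of the spliceosome, at 72.2. The Sm proteins had 2 of 7 (snr-6 at 30.5 and snr-4 at 14.9), the SMN complex, which assembles Sm rings, 1 of 2 (smi-1 at 59.7), the Integrator complex, which cuts the 3′ ends of snRNAs, 1 of 11 (ints-7 at 52.0), and the trans-splicing proteins 1 of 3 (sna-1 at 11.7). No start of the 7 matched snpc genes, of the complex at snRNA promoters, had a ranked peak.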

How the data were processed

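Peak lists from 2 ChIP-seq samples were analysed, on ce11 per the labels. The authors deposited each list as peaks with a signal value, whose scale is not stated, a score of at most 1000 and the −log10 of the IDR, which the authors deposited in the ranked lists. Peak caller, IDR software, control and read depth are stated in neither labels nor lists. The series list compares lists that share exact peaks with replicate 1 (13627 of 19393) and replicate 2 (14541 of 24293). Genes came from Ensembl release 115 and names and sequences from RefSeq, both WBcel235, the assembly of ce11. A gene was called where a peak lay within 200 bp of it, and the strongest by signal was used. Python 3.11.15, pandas 2.3.3, scipy 1.17.1 and biopython 1.88 were used. Shares have exact (Clopper-Pearson) 95% intervals for counting only. No statistical test was run, as there is 1 group. Named are members with a thresholded peak, the 15 further members of highest signal, of those in all 3 ranked lists the 25 of highest signal, members with a genetic name other than sls-, the lead of each class and host or neighbour genes. Others, such as copies of a named gene, the weakest of a class and members without a peak, were chosen after their values were seen. The members and lists were chosen with earlier results of these data known. Sequences of 2 further members are not reported here. The peak assignment was tested on simulated data. Alternatives were distances of 0 and 500 bp, the other series list, a score of 540, 1 gene per set of identical sequences, each replicate alone and the peak nearest to the gene centre.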

Additional observations from a re-analysis of the deposited data

How the results depend on the processing

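The count of 59 members with a ranked peak kept within 1.5 times under other distances (58 at 0 bp, 63 at 500 bp), the other series list (55), single replicates (46 to 49) and 1 gene per set of identical sequences (48 of 94 sets), but it was 6 at a score of 540 or more. The count of 3 with a thresholded peak was 6 at that score and 0 in the thresholded list of either replicate (without replicate 1 or without replicate 2), and 3 under the other settings. The 34 members in all 3 ranked lists became 31 to 38 under the planned settings, and 40 to 45 where the series list was paired with 1 replicate only, a choice made after seeing the data. The median signal of 41.5 was 21.7 to 25.4 in single replicates, whose lists have their own scale, and 38.8 to 47.4 otherwise. The median summit of 64 bp ran from 52 to 108 bp, within the interval of that median (23 to 129 bp). No paired analysis was possible because there is 1 group and no test. Read depth is unknown, so the lack of a peak does not show that the protein was absent, and peaks in repeated genes depend on how reads were placed.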
